A study of Drosophila melanogaster with 999 samples.

Results

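The dpr genes of Drosophila encode small cell surface proteins with immunoglobulin domains, and 8 of them, dpr1, dpr2, dpr3, dpr4, dpr5, dpr7, dpr13 and dpr19, are described here in single embryonic motoneurons. They were chosen by symbol and not by a rule on measured values, although earlier results of these data were known. All 8 were among the 7279 genes of the count table, beside 13 other dpr genes. Each RFP-positive cell was sequenced as its own SMART-Seq2 library. The cells came by sorting from pooled embryos of 19 to 20 h that carried OK371-GAL4 and UAS-RFP, and they filled 16 plates, labelled 1 to 17 with no plate 4. OK371-GAL4 is a driver active in glutamatergic neurons, which in the fly include the motoneurons but also other cells, and primers for 7 Hox genes (Abd-B, abd-A, Ubx, Antp, Scr, Dfd and labial) had been added to the reaction. No embryo, treatment or separate pool is named for any cell, so the cells form 1 sample, the plates are technical batches, and no test was made across cells.

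Dpr proteins bind the DIPs (Dpr-interacting proteins), a second family of immunoglobulin proteins on the cell surface, and a Dpr on one neuron can meet its DIP on another neuron or on a muscle. Dpr1 to Dpr5 belong to the set that binds DIP-eta, DIP-theta and DIP-iota. In the nervous system the pairs are known for roles in the choice of synaptic partners, and single neurons often carry several dpr genes, while the DIP genes are found in fewer cells.

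Total counts per cell ranged from 100027 to 5834773 reads with a median of 340803, and the plates held 17 to 82 cells with median totals of 129256 to 658763. As a check of the cell type, VGlut, which encodes the vesicular glutamate transporter, had a read in 95.8% of the cells and the pan-neuronal gene elav in 90.6%. Of the glial markers with values, moody had a read in 1.5% and Gs2 in 2.0% of the cells, while nrv2, which neurons also use, had one in 64.4%. Mef2, a muscle and neuron gene, had a read in 42.2%. A gene without a read in a cell may be unexpressed or missed, since each library starts from a single cell. Unless stated otherwise, each cell was therefore drawn down at random to 50000 reads, and a gene was counted as detected at 1 read. All intervals given are exact 95% binomial intervals and cover counting error only.

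The 8 genes divided by detection. Before the draw, dpr7 had a read in 66.9% of all cells (interval 63.9 to 69.8%), dpr13 in 64.9% (61.8 to 67.8%), dpr1 in 56.1% (52.9 to 59.2%) and dpr19 in 49.5% (46.4 to 52.7%). The other 4 genes were found less often, with dpr4 in 36.1% (33.2 to 39.2%), dpr2 in 31.2% (28.4 to 34.2%), dpr5 in 24.8% (22.2 to 27.6%) and dpr3 in 24.4% (21.8 to 27.2%). Of the 4 more frequent genes only dpr1 is in the set that binds DIP-eta, DIP-theta and DIP-iota. Neighbours in this order whose intervals overlapped were dpr7 and dpr13, dpr4 and dpr2, and dpr5 and dpr3. The median of the 8 shares was 42.8%, beside 42.9% for the 13 other dpr genes (range 8.11 to 73.5%), 8.91% for 11 DIP genes (range 1.5 to 23.4%) and 11.6% for all 7279 genes. The most frequent DIP gene, DIP-gamma, had a read in 23.4% of the cells (interval 20.8 to 26.2%), which overlaps the intervals of dpr3 and dpr5. At 10 reads DIP-gamma (19.02%) and DIP-kappa (18.9%) were above dpr3 (18.5%) and dpr5 (18.3%), with overlapping intervals.

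At 50000 reads per cell the shares were 61.4% for dpr13, 56.6% for dpr7, 53.8% for dpr1, 42.8% for dpr19, 28.2% for dpr4, 27.6% for dpr2, 21.1% for dpr5 and 21.02% for dpr3. With at least 10 reads, dpr13 was found in 60.2% of the cells, dpr1 in 51.6%, dpr7 in 50.9%, dpr19 in 38.8%, dpr2 in 24.6%, dpr4 in 23.4%, dpr3 in 18.5% and dpr5 in 18.3%. dpr13 thus came first by both measures, while dpr7 and dpr1, dpr4 and dpr2, and dpr5 and dpr3 each changed places at 10 reads. Low counts were common for some members: 35.2% of the cells with a dpr4 read and 23.95% of those with a dpr7 read had fewer than 10, beside 7.25% for dpr13 and 8.04% for dpr1. Between plates the drawn-down share of dpr19 ran from 17.6% (17 cells) to 57.8%, that of dpr3 from 8.0 to 36.7% and that of dpr1 from 42.3 to 68.6%.

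**Figure D1:**
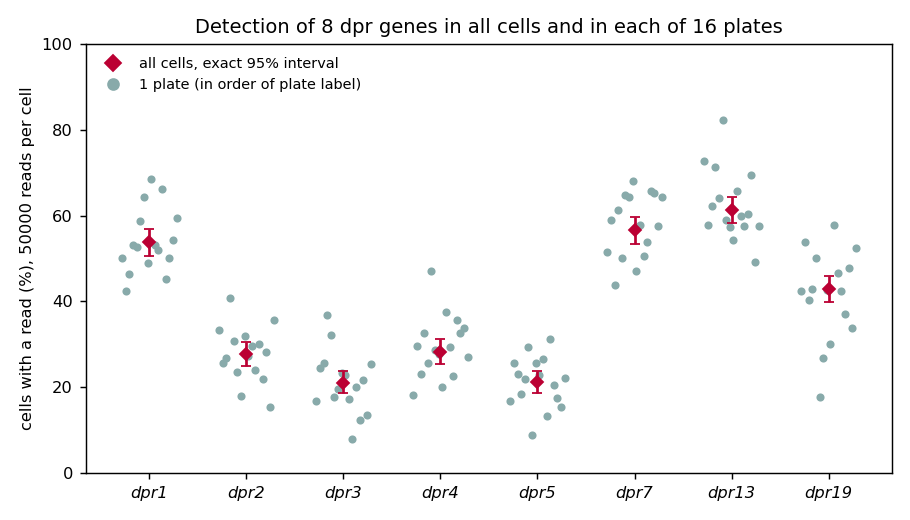
Share of cells with a read of each gene at 50000 reads per cell, in all cells (diamond, with the exact 95% interval) and in each of the 16 plates (points, from left to right in order of plate label). dpr1, dpr7 and dpr13 lie above 50% over all cells, while dpr2, dpr3, dpr4 and dpr5 lie between 21.02 and 28.2%.

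Level was compared between genes in TPM (transcripts scaled to a fixed total per cell), which corrects for transcript length. dpr7 averaged 295.3 TPM over all cells, dpr13 258.8 TPM and dpr1 255.6 TPM, above 96.8, 96.4 and 96.3% of the 11353 genes with any TPM value. The mean level was 74.5 TPM for dpr5, 69.9 TPM for dpr2, 61.8 TPM for dpr19, 30.2 TPM for dpr4 and 29.3 TPM for dpr3. Detection and level did not have the same order. dpr5, with a read in 24.8% of cells, had a median of 165.5 TPM in the cells above 0 TPM (quartiles 43.2 and 415.8), while dpr19, with a read in 49.5%, had a median of 86.4 TPM (quartiles 37.1 and 167.6).

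In normalised counts, which are counts scaled to the median total of the cells, dpr1 had a lowest value of 0.314, a median of 147.4 and a highest value of 1931 in the cells with a read. dpr13 had 0.202, 138.4 and 1812 in the same order, and dpr5 0.226, 46.6 and 1376. dpr19 had the narrowest upper range, with 0.223, 37.7 and 296.3. No gene rested on a single cell: the cell with most reads held between 1.70% (dpr13) and 7.71% (dpr2) of a gene's reads.

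The variation between cells differed as well. Among the low-twit cells, which are defined below by low counts of the genes twit and Vmat, the squared coefficient of variation of dpr5 was 0.83 above the value fitted for its mean on the log2 scale, and that of dpr1 was 0.69 above it. These values exceeded those of 96.7 and 95.7% of 7207 genes. dpr13 (0.35) and dpr2 (0.25) were also above the fit. dpr3 (-0.12), dpr7 (-0.11) and dpr4 (-0.48) were below the fit but above 78.2, 78.5 and 53.02% of genes in this order. dpr19, at -1.28, had a lower value than most genes, as 11.2% of genes lay below it. The median of the 8 members was 0.07, beside 0.61 for the 11 DIP genes, -0.15 for the 13 other dpr genes and -0.52 for all genes.

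**Figure D2:**
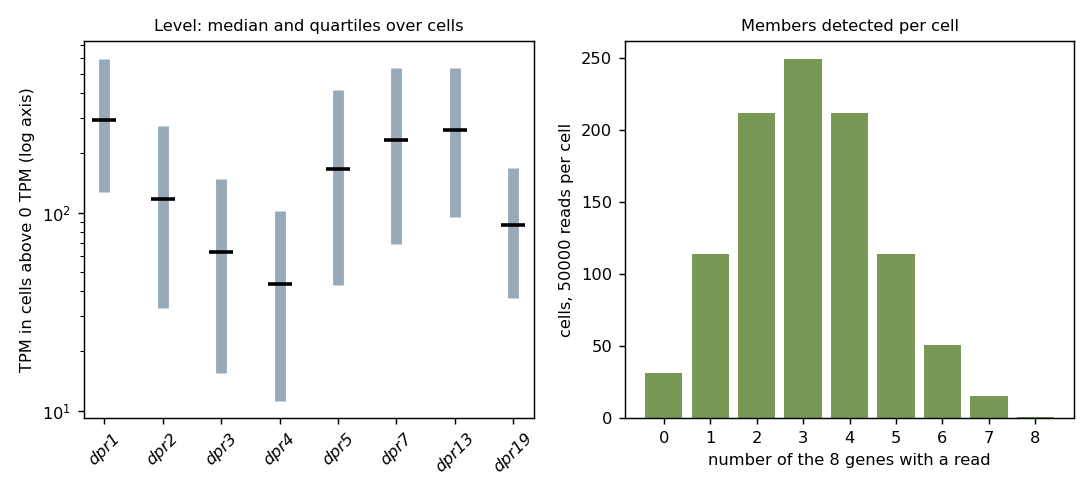
Left, level of each gene in TPM on a log axis, over the cells above 0 TPM (bar: quartiles, line: median). Right, number of the 8 genes with a read per cell at 50000 reads per cell, for all cells. The median is highest for dpr1 (293.8 TPM) and lowest for dpr4 (43.7 TPM), and 24.9% of the cells had 3 of the genes.

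In the annotation (Ensembl, BDGP6.54), dpr1 lies on chromosome arm 2R at 20698483 to 20750442 and dpr13 on 2R at 17975122 to 18007902. dpr2 (10917015 to 10964153), dpr3 (2058790 to 2109878) and dpr19 (10376168 to 10379905) lie on 2L, and dpr7 lies on the small chromosome 4 (247124 to 253329). dpr4 (11533483 to 11542949) and dpr5 (11499984 to 11505951) are neighbours on 3R, 27.5 kb apart and with 0 protein-coding genes between them. An exon of dpr4 overlaps the antisense gene asRNA:CR45056, and reads of the pair cannot be told apart without strand. No exon of the other members overlapped another gene.

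Reads were also assigned to the transcripts of each gene, as an estimate. For dpr13, 98.6% of the reads went to FBtr0300215, and for dpr7 91.4% to FBtr0334408. dpr1 had 88.02% in FBtr0344877, with 72.9 to 96.7% between plates. The division was more even for dpr5, with 70.9% in FBtr0082394 (27.6 to 96.4% between plates), dpr19, with 63.02% in FBtr0080004, dpr2, with 57.1% in FBtr0340553, and dpr3, whose leading transcript FBtr0334783 held 46.03%. dpr4 had 1 transcript. In single cells with at least 10 dpr2 reads, 61.4% had between 10 and 90% of them in FBtr0340553. The leading transcript of dpr1 held 87.4% of the reads in twit cells, 82.7% in Vmat cells and 88.9% in low-twit cells, so that it led in each.

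Most cells carried several of the genes. At 50000 reads per cell, 96.9% of the cells (interval 95.6 to 97.9%) had at least 1 of the 8, the median was 3 genes, and 39.3% had 4 or more. No member was found in 31 cells, 1 member in 11.4%, 2 in 21.2%, 3 in 24.9%, 4 in 21.2% and 5 in 11.4% of the cells, while 51 cells had 6, 15 had 7 and 1 had all 8. Of dpr1 to dpr5, at least 1 was found in 80.98% of the cells. After the draw, which sets the same depth for each cell, mean numbers ran from 3.08 to 3.18 genes over 4 classes of total count. Before the draw they rose from 3.31 in the lowest class to 3.75 in the highest. Plate means after the draw ran from 2.73 to 3.57.

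Many combinations occurred, 55 of them in a single cell. The most frequent, dpr1 with dpr13 and no other member, was found in 39 cells (3.90%). It was followed by dpr13 alone in 38 cells and by dpr1, dpr7, dpr13 and dpr19 together in 36 cells. With another random draw dpr13 alone led with 46 cells, so the order among the first combinations was not stable.

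Co-detection was described by the log2 odds ratio, which is above 0 where cells with one gene had the other gene more often than cells without it. Of the 28 pairs of members, 22 lay above 0 and the median was 0.28. For the members with each of 6306 genes detected in at least 20 cells, 71.6% of the pairs lay above 0 and the median was 0.25. The members as a group were thus close to the background of all genes. Only 2 pairs, 7.14% of the 28, exceeded 1, beside 8.72% of the pairs with all genes.

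dpr2 and dpr3 formed the pair with the highest value. A dpr3 read was found in 39.1% of the cells with dpr2 and in 14.1% of the cells without it, a log2 odds ratio of 1.97. In turn, 51.4% of the dpr3 cells had dpr2, beside 21.3% of the other cells. The value was above 0 in 16 of 16 plates, it was 1.92 within plates, 2.12 at 10 reads and between 1.82 and 2.09 when each plate was left out. By the phi coefficient of detection, a correlation between present and absent over all cells, in which the genes share a library and its depth, dpr3 was the gene most like dpr2 and dpr2 the gene most like dpr3 among all genes (phi 0.27). The genes are 8807 kb apart on 2L, with 1199 protein-coding genes between them. Counts of 10 or more for both genes occurred in 67.4% of the cells that held a read of each before the draw. In those cells, the smaller count had a median of 28.6% of the larger, and dpr2 had the larger count in 50.7%. The levels of the pair hardly went together in these cells (Spearman's rho 0.13, a description over the cells with both). The counting could split reads that related genes share, and how many they share was not tested.

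dpr7 and dpr19 came next with a log2 odds ratio of 1.59, as 71.5% of the dpr19 cells had dpr7, beside 45.4% of the other cells. This pair moved with the number of genes found in a cell, which at 50000 reads had a median of 1257 and reached 3531. Cells with dpr7 had a median of 1459 genes and cells without it 1047, and for dpr19 the medians were 1487 and 1098. The cells were divided into 10 equal classes by this number, a step chosen after seeing the data. In the class with the fewest genes dpr7 was in 17% and dpr19 in 9% of the cells, while in the class with the most genes they were in 89 and 71%. Within the gene-number classes the value of the pair was 0.66, whereas that of dpr2 and dpr3 was 1.95. dpr7 and dpr19 also had high values with genes in general, with medians of 0.72 and 0.64 over 6305 genes, beside 0.03 for dpr1 and 0.06 for dpr13. The part of the number of genes in these values was not tested further.

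Among the remaining pairs, dpr1 with dpr5 (0.80), dpr1 with dpr2 (0.79) and dpr3 with dpr5 (0.81) were above 0 in 14, 13 and 11 of 16 plates and had 0.79, 0.76 and 0.54 within the gene-number classes. dpr13 and dpr19 had the lowest value of the 28 pairs (-0.39, and -0.65 within the classes), as 57.7% of the dpr19 cells had dpr13, beside 64.1% of the other cells. The neighbours dpr4 and dpr5 had 0.39, with 69 cells in common. Over the draw, another draw, 1 and 10 reads, plates and gene-number classes, 16 of the 28 pairs kept their sign, and 1 pair, dpr2 with dpr3, exceeded 1 in each.

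**Figure D3:**
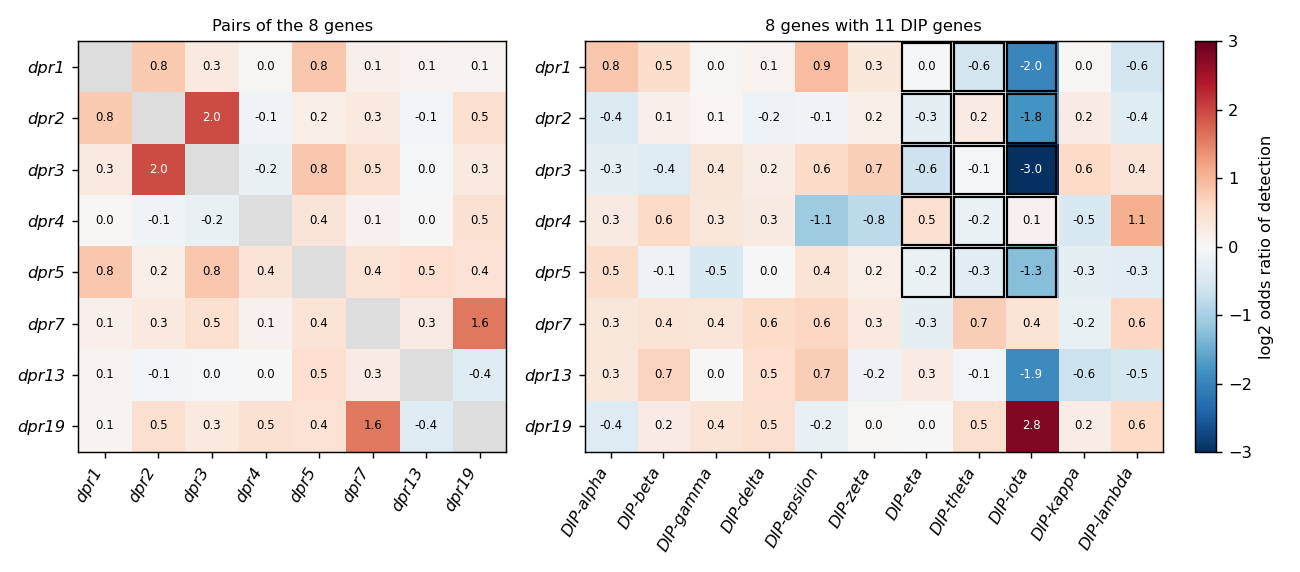
Log2 odds ratio of detection at 50000 reads per cell over all cells, for the pairs of the 8 genes (left) and for the 8 genes with 11 DIP genes (right). Red is above 0 and blue below, and black frames mark dpr1 to dpr5 with DIP-eta, DIP-theta and DIP-iota, of which 12 of 15 are below 0. Of the pairs of the 8 genes with all genes, 71.6% are above 0. dpr2 with dpr3 (1.97) and dpr19 with DIP-iota (2.77) are the highest of each panel.

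The 88 pairs of a member with a DIP gene spread around 0, with a median of 0.13 and 51 pairs above 0. Beside them, the members with all genes had a median of 0.25 and 71.6% of pairs above 0. The files give DIP-kappa under the name CG31814 and DIP-lambda under CG45781. A DIP gene was detected in 66.3% of the cells, and 98.04% of these had a member, beside 94.7% of the cells without a DIP gene. A member was thus found in most cells with and without a DIP gene.

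For the 15 pairs whose proteins bind each other, dpr1 to dpr5 with DIP-eta, DIP-theta and DIP-iota, the median was -0.27 and 12 pairs were below 0. With all genes, the medians of dpr1 to dpr5 were 0.03, 0.13, 0.39, 0.10 and 0.33 in this order. The 40 pairs of dpr1 to dpr5 with the other DIP genes had a median of 0.16, with 15 below 0. At least 1 of the 3 DIP genes was found in 18.9% of the cells with any of dpr1 to dpr5, and in 25.3% of the cells with none of them. With another draw the shares were 19.8 and 21%, and at 10 reads 17.2 and 19.5%, so the size of this gap was not stable. The pairs share cells and genes and 5 of them rest on 14 DIP-iota cells, so they are not independent. With another draw the median of the 15 pairs was -0.08. The highest of them, dpr4 with DIP-eta, had 0.48, and the lowest apart from DIP-iota was dpr3 with DIP-eta at -0.63, from 11 cells in common.

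DIP-iota was the rarest of the DIP genes. Its 14 cells came from 10 plates, at most 3 from 1 plate, and had 8 to 4620 DIP-iota reads (lowest to highest). dpr19 was found in 12 of them (85.7%, interval 57.2 to 98.2%), beside 42.2% of the other cells, a log2 odds ratio of 2.77. Before the draw all 14 had a dpr19 read, with 1 as the lowest, 45.5 as the median count, and 12 of them had at least 10. dpr7 was found in 9 of the 14, dpr4 and dpr13 in 4 each, dpr1 in 3, dpr2 and dpr5 in 1 each and dpr3 in 0, which allows a share of up to 23.2%. The other cells had dpr13 in 61.8% and dpr1 in 54.2%. The log2 odds ratio with DIP-iota was -1.96 for dpr1, -1.92 for dpr13 and -1.80 for dpr2. The cells had a median of 1568 genes, beside 1256 in the others, and 3 of the 14 were twit cells. Within the gene-number classes dpr19 with DIP-iota had 3.91.

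Outside DIP-iota, the highest values were those of dpr4 with DIP-lambda (1.07, 16 of 36 DIP-lambda cells), dpr1 with DIP-epsilon (0.93, 35 of 51 cells) and dpr1 with DIP-alpha (0.82, 42 of 63 cells). DIP-alpha is known for the matching of motoneurons to muscles together with Dpr6 and Dpr10. The lowest was dpr4 with DIP-epsilon at -1.06, found together in 8 of 51 DIP-epsilon cells. Each of these 4 pairs kept its sign at 10 reads, within plates, within gene-number classes and without any 1 plate. dpr13 and DIP-kappa also had a value below 0 (-0.65), with dpr13 in 52.6% of DIP-kappa cells, beside 63.5% of the other cells, and below 0 in 14 of 16 plates. In twit cells, defined below, dpr1, dpr13 and DIP-alpha were more frequent than in low-twit cells, and DIP-kappa was less frequent. The part of the twit cells in these pairs was not tested.

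By the rule of the 3 genes with the highest phi per member, the genes found with dpr1 were twit, a target of BMP signalling in motoneurons (phi 0.24), CG14274 (0.22) and CG3014 (0.22). The genes like dpr2 after dpr3 were CG17716 and CG43778, and those like dpr3 after dpr2 were CdsA, a lipid enzyme, and RpS4, a ribosomal protein. dpr5 had bsk, the JNK kinase, CG5028 and CG1764, each at 0.17. dpr4 had no strong companion, with Atac3 at 0.14 and Src64B and CG32521 at 0.12. dpr13 had tsh, a trunk-specific zinc finger gene (0.17), Nckx30C, a calcium exchanger (0.15), and Cow (0.15). dpr7 had CanB, a calcineurin subunit (0.40), Nca, a neuronal calcium sensor (0.37), and arm, the beta-catenin (0.36). dpr19 had Cyt-c-p, cytochrome c (0.30), His4r, a histone (0.30), and mbf1 (0.29). The number of genes per cell moves with dpr7 and dpr19 as described above.

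Cells were then placed by the reads of genes that mark motoneuron classes. Twit cells (19.6% of all cells) had 10 or more twit reads, Vmat cells (7.91%, 79 cells) had 10 or more of Vmat, the vesicular monoamine transporter of modulatory neurons, and low-twit cells (73.4%) reached 10 for neither gene. Both conditions were met by 9 cells. A member was called where the ratio of the shares exceeded 1.5 in either direction, with no test.

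dpr1 was more frequent in twit cells. It had a read in 77.6% of twit cells (interval 71.1 to 83.2%) and in 47.3% of low-twit cells (43.7 to 51.03%), a ratio of 1.64. By plate, the share ran from 57.1% over a median of 81.7 to 100% in twit cells, against 33.3% over 42.3 to 64.3% in low-twit cells. The twit share was the higher one in 16 of 16 plates, while the ranges over plates overlapped. In the cells with a read, the median normalised count of dpr1 was 128.1 in twit cells and 156.2 in low-twit cells.

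dpr5 was the second member called, with 29.6% of twit cells against 19.1% of low-twit cells, a ratio of 1.55 and a difference of 10.5 percentage points (1.16 to 20.2), higher in 12 and lower in 3 of 16 plates. The call was lost without plate 5 or without plate 10. The mean normalised counts of dpr5 were 20.7 in twit cells and 21.3 in low-twit cells. Among 4787 genes with a read in at least 5% of the cells, 7.42% were called higher and 18.2% lower in twit cells, so that 2 of 8 members were called higher and 0 lower. Of the 13 other dpr genes 2 were called higher (dpr15 and dpr17) and 0 lower. Of the 7 DIP genes past the filter, of 11, 1 was called higher (DIP-alpha) and 4 lower (DIP-beta, DIP-delta, DIP-theta and DIP-kappa).

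dpr13 was also found more often in twit cells, with 71.9% against 58.9% in low-twit cells, a difference whose interval ran from 2.57 to 22.8 points and that was not called. It was the higher one in 12 of 16 plates, and its median normalised count in cells with a read was 200.2 in twit cells and 134.9 in low-twit cells. dpr7 and dpr19 went the other way. dpr7 was in 45.4% of twit cells against 59.5% of low-twit cells (difference -14.1 points, -24.8 to -3.17) and lower in 12 of 16 plates, and dpr19 in 32.7% against 46.2% (difference -13.6 points, -23.8 to -2.89) and lower in 14 of 16 plates. Neither was called by its share. The log2 ratio of the shares was -0.39 for dpr7 and -0.50 for dpr19. Over 4787 genes its median was -0.13, with quartiles of -0.46 and 0.13, so genes in general were also found less often in twit cells. By the mean normalised count dpr7 had 28.5 in twit cells and 65.1 in low-twit cells, a log2 ratio of -1.19, and dpr3 had 8.41 and 16.9, a log2 ratio of -1.01. Twit cells had a median of 1222 genes per cell and low-twit cells 1282, and within gene-number classes the log2 ratios of the shares were -0.32 for dpr7 and -0.41 for dpr19. dpr2, dpr3 and dpr4 differed by -2.22, -4.62 and 2.58 points, with intervals that include 0. The 3 glial markers with values, of 7, summed to a median normalised count of 4.70 in twit cells (range 0 to 640.3) and 22.2 in low-twit cells (range 0 to 7845). At 10 reads nrv2, which neurons also use, was in 41.3% of twit cells and 56.2% of low-twit cells. moody (1.53 against 0.82%) and Gs2 (1.53 against 0.68%) went the other way. The part of these 3 markers in the differences of the members was not tested. The mean number of members per cell was 3.30 in twit cells and 3.08 in low-twit cells.

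**Figure D4:**
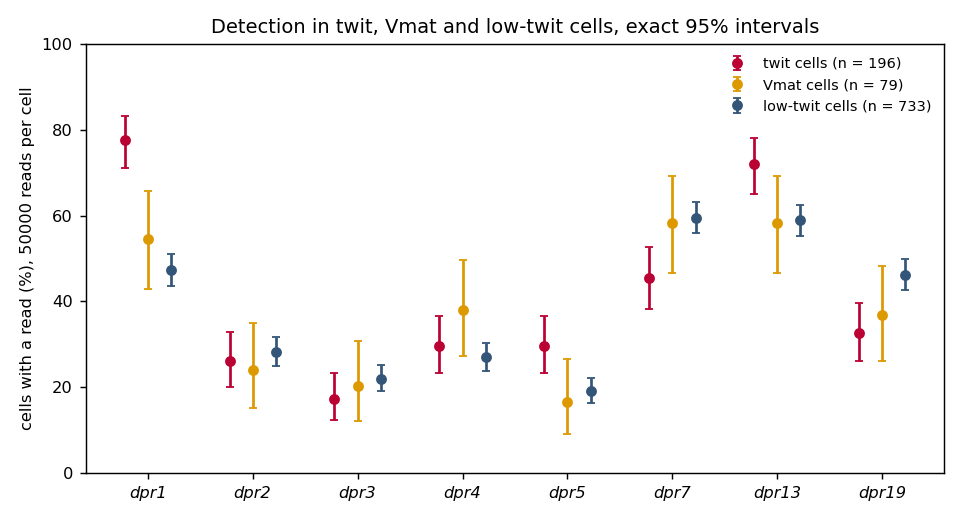
Share of cells with a read of each gene at 50000 reads per cell in twit cells (19.6% of all cells), Vmat cells (79 cells) and low-twit cells (73.4% of all cells), with exact 95% intervals. dpr1 stands at 77.6% in twit cells and 47.3% in low-twit cells, and the intervals of Vmat and low-twit cells overlap for each gene.

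Vmat cells carried monoamine markers, with 10 reads of DAT, the dopamine transporter, in 32.9% of Vmat cells against 1.23% of low-twit cells and of Tdc2, which makes tyramine, in 22.8% against 0.41%. No member was called higher or lower, while 7.7% of 4806 genes were called higher and 11.1% lower. The interval of the difference included 0 for each of the 8 members. The farthest was dpr4, in 37.97% of Vmat cells and 27.01% of low-twit cells, a difference of 10.96 points (-3.10 to 25.8). By plate its share ran from 0 over a median of 26.5 to 88.9% in Vmat cells, against 15.2% over 24.5 to 41.3% in low-twit cells, and it was higher in 3 of 6 plates with at least 5 cells of each. dpr4 was called higher at 10 reads and when plate 5, 11 or 12 was left out. dpr19 was in 36.7% of Vmat cells and 46.2% of low-twit cells, and dpr1 in 54.4 and 47.3%.

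Hox genes mark the position of a cell along the body axis, from Dfd and Scr in the head segments to Abd-B at the tail. Low-twit cells with at least 10 reads of a Hox gene were placed by the most posterior one. This gave 57 Dfd or Scr cells, 45 Antp, 74 Ubx, 100 abd-A and more Abd-B cells (12.1% of all cells). dpr4 and dpr7 had the narrowest ranges of shares over these 5 groups, with 28.9 to 33.3% for dpr4 and 59.6 to 65% for dpr7. The 28 cells with labial alone, the most anterior Hox gene, were kept apart from the ranges. They had dpr4 in 21.4% (interval 8.30 to 40.95%), dpr7 in 50% (30.6 to 69.4%), and dpr1 and dpr3 in 35.7% each (18.6 to 55.9%). The range of dpr4 over the 5 groups, 4.44 points, exceeded that of 1.95% of the 2879 genes whose share in Hox cells is between 10 and 60%. The median range of those genes was 13 points. dpr1 (17.4 points, above 73.6% of those genes), dpr2 (15.2 points, above 62.7%) and dpr19 (15.1 points, above 62.4%) were over that median, and dpr5 (12.4 points, above 46.5%) was under it.

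Over the 5 groups dpr3 had the widest range of the 8 members and was most frequent in the anterior ones. It was found in 33.3% of Dfd or Scr cells (interval 21.4 to 47.1%), 26.7% of Antp cells (14.6 to 41.9%), 12.2% of Ubx cells (5.71 to 21.8%), 14% of abd-A cells (7.87 to 22.4%) and 11.6% of Abd-B cells (6.47 to 18.7%). The intervals of the first and the last group did not overlap, those of all neighbours did. Its range of 21.8 points exceeded that of 88.9% of the 2879 genes. Abd-B cells against Antp cells gave a ratio of 0.44 for dpr3, with a difference of -15.1 points (-35.5 to 4.05) that includes 0. It was the 1 member called lower there, with 0 called higher, while 26.2% of 4726 genes were called lower and 5.54% higher. Abd-B cells had a median of 1201 genes per cell and Antp cells 1553, and within gene-number classes the log2 ratio of dpr3 was -1.32, beside -1.19 without them. The share of cells with 10 reads of grh or trh, the 2 epidermal and tracheal markers with values of 4, also fell along the axis. It was 24.6% of Dfd or Scr cells, 8.89% of Antp, 4.05% of Ubx, 1% of abd-A and 0% of Abd-B cells. Over all low-twit cells, trh had 10 reads in 4.50% and grh in 0.55%, and the 2 genes were not followed apart by Hox group. Their part in the values of dpr3 was not tested. Plates could hardly be compared, since 1 plate held at least 5 cells of both groups. dpr2, which is found with dpr3, had 36.8% in Dfd or Scr cells and 28.9% in Abd-B cells, with a lowest share of 21.6% in Ubx cells.

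Of the other members over the 5 groups, dpr19 ran from 56.1% in Dfd or Scr cells to 41% in abd-A cells. dpr1 ran from 57.9% in Dfd or Scr cells to 40.5% in Ubx cells, and the intervals overlapped for both genes. Among the 5 groups dpr13 was highest in Ubx cells (77.03%) and lowest in Abd-B cells (62.8%). dpr5 was lowest in Dfd or Scr cells (10.5%) and highest in Ubx cells (22.97%). Its median normalised count in cells with a read was 153.98 in the 24 Abd-B cells and 48.1 in the 10 Antp cells, where 1 cell carried 47.4% of the normalised counts.

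**Figure D5:**
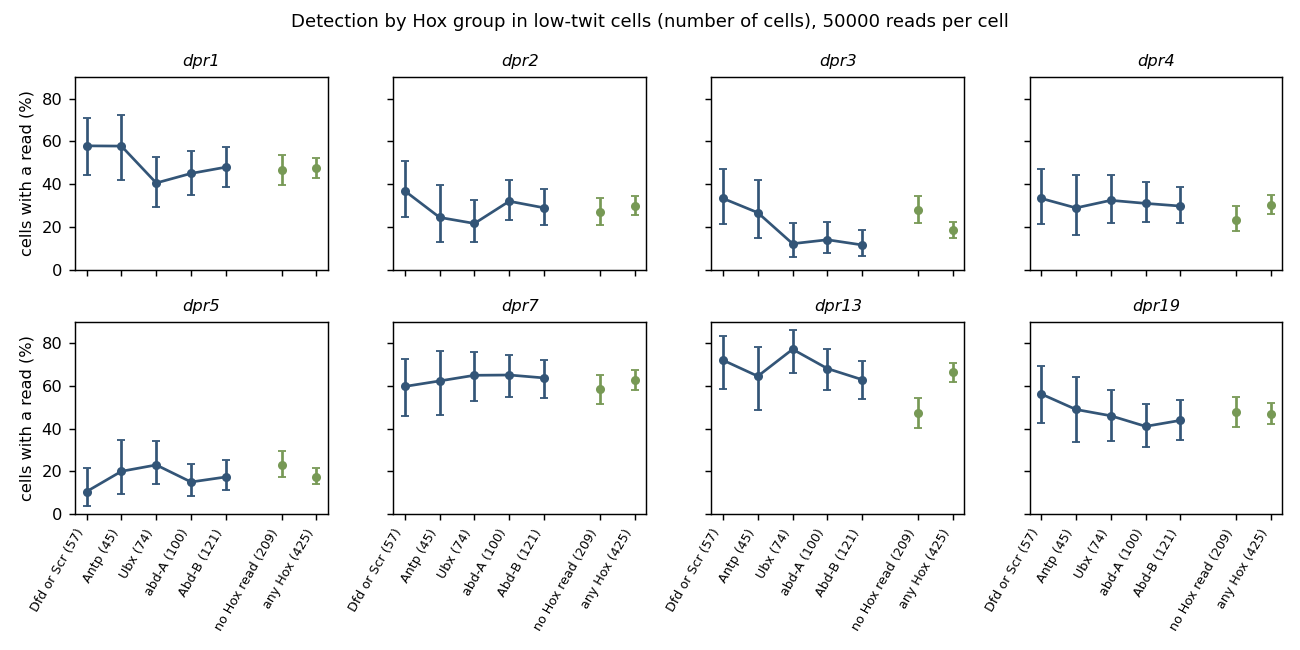
Share of low-twit cells with a read of each gene at 50000 reads per cell, with exact 95% intervals, in the 5 Hox groups from anterior to posterior (blue) and in cells with no Hox read and with at least 10 reads of any Hox gene (green). dpr3 falls to 11.6% in Abd-B cells, and dpr13 is at 47.4% in cells with no Hox read and 66.4% in cells with a Hox gene.

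Low-twit cells with no read of the 7 Hox genes made up 20.9% of all cells, and those with at least 10 reads of one made up 42.5%. The 99 low-twit cells with 1 to 9 Hox reads only were in neither group. They had dpr13 in 51.5% (interval 41.3 to 61.7%) and dpr3 in 25.3% (17.1 to 34.98%). dpr13 was found in 47.4% of the cells with no Hox read (interval 40.4 to 54.4%) and in 66.4% of the Hox cells (61.6 to 70.8%), a difference of -19.0 points (-30.4 to -7.27). By plate the shares ran from 25% over a median of 41.7 to 68.8% in cells with no Hox read, against 55% over 65.5 to 85.7% in Hox cells. It was lower in 14 of 15 plates with at least 5 cells of each, although the ranges overlapped. At a ratio of 0.71 it did not reach the fold used for a call, but 5.6% of 4767 genes had a lower ratio. The 28 cells with labial alone, the most anterior Hox gene, had dpr13 in 39.3% (interval 21.5 to 59.4%).

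dpr3 went the other way and was the only member called, with 27.8% of cells with no Hox read against 18.4% of Hox cells, a ratio of 1.51. Of the 4767 genes, 8.41% were called higher and 3.73% lower. The interval of the difference, -0.57 to 19.6 points, included 0, and the call was lost with another draw, at 10 reads, by mean counts, within gene-number classes and without plate 5, 13, 14, 15 or 16. dpr3 was the higher one in 10 of 15 plates. Other markers moved between these groups too. At least 10 reads of a monoamine marker were found in 37.8% of the cells with no Hox read and 14.6% of the Hox cells. Over all low-twit cells, 10 reads were found of Ddc in 17.1% and of Tbh in 8.46%. DAT and ple had them in 1.23% each and Tdc2 in 0.41%, and Vmat is below 10 by definition. At least 10 reads of Mef2, the 1 muscle marker of 7 with values, were found in 46.4 and 25.2% of the 2 groups. The part of these markers in the differences of dpr13 and dpr3 was not tested. The other 6 members differed by between -6.91 (dpr4) and 5.55 points (dpr5), with intervals that include 0.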

How the data were processed

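The samples were 999 single-cell libraries, and no label separates embryos. Per the labels and the study's methods, the authors assigned SMART-Seq2 reads to BDGP6 transcripts with kallisto (0.43.0 in the submitters' processing notes, beside R 3.5.1). They deposited estimated counts per gene, not normalised, for genes that passed their own filter, and per cell the estimated counts and TPM values of each transcript. The protocol has no molecular identifiers and no strand, so intervals and floors cover counting error only. The gene counts were used here, TPM was summed per gene for levels between genes, and the transcript sums of each member, rounded to whole reads, equalled its gene count in all 999 cells. 0 pairs of cells were identical.

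Cells were drawn down to 50000 reads without replacement (seed 17). Log2 odds ratios had 0.5 added to each number. A comparison between groups gives the ratio of shares over genes in at least 5% of cells, with 0.5 cells added, and calls genes past 1.5. The interval of a difference combines the exact limits of both shares. Size factors were totals over their median. Variability was set against a curve falling with the mean. Likeness named the 3 genes with the highest phi per member, among genes in at least 20 cells. Alternatives were 10 reads, no draw, another draw (seed 18), each plate left out, plates as strata, means instead of shares (past 2), size factors without the 50 genes with most reads, other placements of cells and, chosen after seeing the data, 10 equal classes of genes per cell as strata. The members and lists were chosen with earlier results of these data known. No doublet caller was run. Scripts were tested on simulated data, with Python 3.11.15, NumPy 2.4.6, pandas 2.3.3, SciPy 1.17.1 and statsmodels 0.14.6.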

Additional observations from a re-analysis of the deposited data

How the results depend on the processing

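Replicate numbers only name the cells and pair none of them. The plates, which the groups share, were used as strata or compared one by one. The median share of the members was 42.8% at 1 read, 31.7% at 10 reads, 35.5% after the draw and 36.4% with another draw, and 42.2 to 43.2% without any 1 plate. At least 1 member was found in 96.9% of cells after the draw, 94.8% at 10 reads and 98.6% without the draw. In twit against low-twit cells, the 2 calls (dpr1 and dpr5) became 2 others (dpr3 and dpr7) by means past 2, and 1 (dpr7) by means with the total without the 50 top genes. Between 1 and 2 members were called without each plate. The log2 ratio of dpr5 turned to -0.044 by means. In Vmat cells, 1 member (dpr4) was called at 10 reads and by means without the 50 top genes, where 0 had been called, and 0 to 1 without each plate. With cells placed at 1 Hox read, 2 members (dpr3 and dpr5) were called in Abd-B against Antp cells in place of 1, and 1 to 1 without each plate. For cells without Hox reads the 1 call (dpr3) became 0 at 10 reads, with another draw, by both kinds of means and within 10 gene-number classes, and 0 to 1 without each plate. The share of all genes called is given only for the main rule. The counts of members called under the other rules are thus not set against genes in general, and they show only whether a call was kept. Within these classes, chosen after seeing the data, the median log2 odds ratio was 0.021 in place of 0.28 within the group and -0.021 in place of 0.13 with DIP genes, so the DIP median changed sign. The log2 ratios of dpr1 and dpr13 in twit cells ranged from 0.21 to 0.74 and from 0.24 to 0.82 over 24 alternatives, and that of dpr13 in cells without Hox reads from -0.80 to -0.38 over 23, with the same sign in each. The number of cells limits the precision: 14 DIP-iota, 45 Antp and 79 Vmat cells leave wide intervals, and a missing read is not shown to be a missing transcript.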

Other observations

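Transcription factors that mark motoneurons were set beside the 8 genes, a list chosen with results of these data known. eve and grn are known from dorsally projecting motoneurons, and exex, tup, Lim3, HGTX and vvl from ventrally projecting ones. zfh1, which was listed with eve and grn, is named in the study as a marker of motoneurons. dpr13 was found in all 29 cells with eve at 50000 reads (100%, interval 88.1 to 100%), beside 60.2% of the other cells, and in 37 of 40 cells with HGTX (92.5%, 79.6 to 98.4%), beside 60.1%. The full overlap with eve moved with the counting. Before the draw dpr13 had a read in 33 of 35 eve cells (94.3%), and at 10 reads it was in all 25. With another draw the log2 odds ratio of dpr13 with eve was 2.93, in place of 5.29. The eve cells came from 15 plates, at most 5 from 1 plate. dpr1 was found in 33 of the 40 HGTX cells (82.5%) and 23 of the 29 eve cells (79.3%), beside 52.5 and 52.99% of the other cells. At 10 reads dpr1 was in 32 of 37 HGTX cells (86.5%), beside 50.2%, and in 16 of 25 eve cells (64%), beside 51.2%.

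dpr5 had a median log2 odds ratio of 0.99 with the 8 factors, beside 0.33 with all genes. The values ran from 0.98 to 2.15 for 5 factors (zfh1, Lim3, eve, exex and HGTX). With grn (0.13), tup (0.11) and vvl (0.08) they were below the value for all genes, and the sign turned for grn without the draw (-0.03) and for tup at 10 reads (-0.21). dpr5 was in 21 of 40 HGTX cells (52.5%, interval 36.1 to 68.5%, beside 19.8%) and 20 of 49 exex cells (40.8%, interval 27 to 55.8%, beside 20.1%). dpr13 had a median of 0.75, beside 0.06 with all genes, and 7 of 8 factors above 0. dpr19 had -0.26, beside 0.64 with all genes, and 3 of 8 above 0. dpr3 was in 13.7% of grn cells (interval 9.95 to 18.3%), beside 23.9% of the other cells, and above 0 in 2 of 16 plates. Twit cells made up 25 of the 29 eve cells and 30 of the 40 HGTX cells, in which dpr1, dpr5 and dpr13 are more frequent, and the part of that overlap in these values was not tested.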
